A study of Gallus gallus with 6 samples.

Results

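Kinesins and dyneins are the motor proteins that move along microtubules, and 58 chicken genes of these families were measured among 13009 genes with a symbol on the array. The members were found by name in the annotation of the array, as single gene symbols that start with KIF and a digit, KIFC, KLC and a digit, DYNC, DYNL or DNAH. They were read by 154 of 38439 probe sets, and each gene was represented by its probe set with the highest mean over the arrays. By role the set held 14 kinesins of cell division, 13 kinesins and kinesin light chains of transport, 10 kinesins of cilia or of other function, 5 subunits of cytoplasmic dynein 1, 5 dynein light chains, 2 subunits of the ciliary dynein 2 and 9 heavy chains of axonemal dyneins. One of the transport genes, KIF1BP, codes for a protein that binds kinesins and is not itself a motor.

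Most kinesins walk towards the plus end of a microtubule and dyneins towards the minus end, both at the expense of ATP. During meiosis and mitosis division kinesins slide spindle microtubules, shorten them at chromosomes and poles and build the central spindle on which the cell divides, whereas cytoplasmic dynein gathers the poles and also carries cargo towards the cell centre. In a bird egg the oocyte nucleus, its meiotic spindle and most of the cytoplasm that will form the embryo lie in the germinal disc, a small white spot on top of the yolk.

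The study set out to find genes of oocyte maturation and early development in the hen. It measured mRNA on 6 chicken Affymetrix arrays, 2 for each of 3 groups. Ov GDR was the germinal disc region after ovulation, F1 GDR the same region of the oocyte in the F1 follicle, the largest follicle and the next to ovulate, and F1 GCs the granulosa cells that lay near this region in F1 follicles. Granulosa cells form the layer around the oocyte that makes progesterone. All groups came from untreated ISA Brown laying hens aged 60 weeks, kept with 14 h of light and 10 h of dark according to the labels. The methods give a slightly longer light period. Each array carried RNA of its own pool of 25 hens, and the pools are called biological replicates in the methods. As the study describes its samples, granulosa cells were absent from Ov GDR and could not be removed fully from F1 GDR, so that between the germinal disc groups stage and granulosa content cannot be told apart. The study also reports that ribosomal RNA of this region appeared degraded after ovulation and until oviposition. It describes mRNA as almost unaffected, and the state of the RNA likewise cannot be told apart from stage in comparisons with Ov GDR. The labels give 17 and 16.5 µg of total RNA for the Ov GDR arrays, 17.2 and 20 µg for the F1 GDR arrays, and 7 and 14 µg for the F1 GCs arrays. In each pair of values the array without a suffix stands before that with the suffix A. The methods instead state that 2 µg of total RNA were reverse transcribed, so the labels' amounts need not be what each array received.

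All values are log2 expression values as gcrma gives them, so that a difference of 1 is a fold of 2, and the level of one gene cannot be set against that of another. As background of an array served its highest value among 23 control probe sets for foreign sequences, 3.27 and 3.01 in the Ov GDR pair, 2.82 and 2.88 in the F1 GDR pair, and 2.76 and 2.78 in the F1 GCs pair. The arrays of Ov GDR lay further apart than the others. Over all probe sets, the difference between the arrays of a pair had a standard deviation of 0.82 for Ov GDR. The same measure was 0.43 for the F1 GDR pair and 0.30 for the F1 GCs pair. Granulosa markers were above background for 8 and 8 of 11 genes in Ov GDR, and for 11 of 11 on every F1 GDR and F1 GCs array, with summed linear levels of 4659 and 3978 in Ov GDR, 11866 and 8949 in F1 GDR, and 22014 and 22874 in F1 GCs. Oocyte markers summed to 688 and 1051 in Ov GDR, 711 and 800 in F1 GDR, and 68.0 and 49.0 in F1 GCs, and of the 8 measured, DDX4 and BMP15 were at background on all 6 arrays. Of 8 markers of theca and stroma 1 was lower in Ov GDR against F1 GCs, of 7 of blood and endothelium 0 and of 6 of immune cells 1, and 0 were higher. In that comparison 10.1% of all genes were higher and 12.2% lower, and with so few markers the counts cannot be told apart from these shares. Mean log2 values were subtracted between groups and tested two-sided by limma across all 38439 probe sets, and higher and lower are used of a Benjamini-Hochberg adjusted p under 0.05. With 2 arrays against 2, an exact permutation test cannot give a p under 0.333. In bulk RNA, fewer cells of a type and less RNA per cell cannot be told apart.

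Above background on all 6 arrays were 31 of the 58 motor genes, on some arrays 15 and on none 12. Per array 36 and 43 motor genes were above background in Ov GDR, 42 and 43 in F1 GDR, and 43 and 39 in F1 GCs. All genes with a symbol were read in the same way, each by its probe set with the highest mean. Their shares above background were 56.5% and 63.3% in Ov GDR, 68.7% and 67.2% in F1 GDR, and 69.7% and 69.0% in F1 GCs. The 12 motor genes at background throughout were KIF2B and KIFC1 of the division kinesins, KIF1A, KIF13B and KIF21B of the transport kinesins, KIF12 and KIF27 of the ciliary group, the light chain DYNLRB1 and the axonemal heavy chains DNAH1, DNAH5, DNAH10 and DNAH17. KIFC1, a minus-end motor that focuses spindle poles, read between 2.09 and 2.11 on all arrays from its only probe set.

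**Figure D1:**
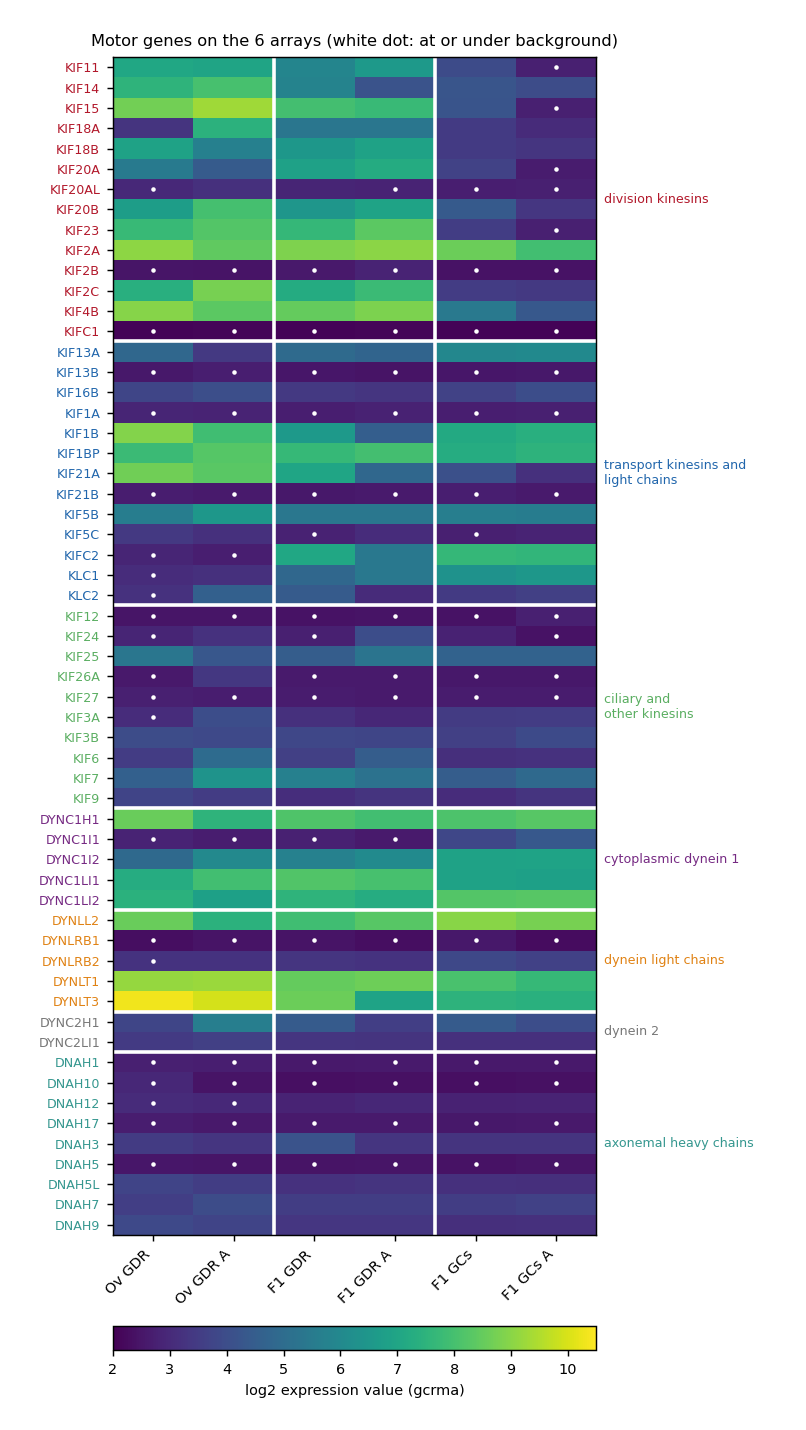
Log2 expression values of the 58 motor genes (rows, grouped by role) on the 6 arrays (columns), as colour, with a white dot where a value is at or under the background of its array. The division kinesins at the top are mostly brighter in Ov GDR and F1 GDR than in F1 GCs, apart from KIF18A, which is dark on 1 Ov GDR array, KIF14, which is dark on 1 F1 GDR array, KIF2A, which is bright on all 6 arrays, and KIF20AL, KIF2B and KIFC1, which are dark on all of them.

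The kinesins of cell division were the group of motors with the largest median difference between germinal disc and granulosa cells. Of the 14, 8 were higher in Ov GDR against F1 GCs and 0 lower, and 6 were higher in F1 GDR against F1 GCs and 0 lower. Over all 13009 genes, 10.1% were higher and 12.2% lower in Ov GDR against F1 GCs, and 4.34% were higher and 3.34% lower in F1 GDR against F1 GCs. The median log2 difference of the 14 was 3.21 for Ov GDR minus F1 GCs and 2.86 for F1 GDR minus F1 GCs, beside 0.08 and 0.03 over all genes. Of the 44 other motor genes 4 were higher and 3 lower in Ov GDR against F1 GCs, and 0 higher and 1 lower in F1 GDR against F1 GCs, where 3 were higher and 5 lower at an unadjusted p under 0.05 (14.9% and 12% over all genes). Their median differences were 0.16 and 0.02. Both comparisons rest on the same F1 GCs arrays. With the arrays scaled to equal means of 3 reporter genes, 10 motor genes were higher and 0 lower in F1 GDR against F1 GCs, in place of 6 and 1. That scaling moved the median over all probe sets in this comparison only from 0.01 to -0.01. The lowest limma adjusted p among the 7 genes called without it went from 0.0251 to 6.2e-12. The part of a changed estimate of the spread in these counts was not tested.

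KIF15, which helps to hold the poles of the spindle apart, had the largest difference of any motor gene. Its values were 8.68 and 9.28 in Ov GDR, 7.95 and 7.77 in F1 GDR, and 4.21 and 2.74 in F1 GCs. The groups did not overlap, and KIF15 was higher than in F1 GCs by 5.50 in Ov GDR (SE 0.58, 45.3-fold, limma adjusted p = 0.00839) and by 4.38 in F1 GDR (20.9-fold, adjusted p = 0.0331). The F1 GCs array with the suffix A was at its background for this gene, as it was for KIF11, KIF20A and KIF23. KIF11, the motor that slides antiparallel microtubules and pushes the poles apart, read 7.07 and 6.96 in Ov GDR, 5.86 and 6.59 in F1 GDR, and 3.93 and 2.74 in F1 GCs, without overlap. KIF11 was 12.8-fold higher in Ov GDR against F1 GCs (difference 3.68, SE 0.51, adjusted p = 0.0163), and its difference of 2.89 between F1 GDR and F1 GCs missed the threshold (adjusted p = 0.0545).

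Several called kinesins work on the central spindle and in cytokinesis. KIF23, the motor subunit of the centralspindlin complex, read 7.73 and 8.24 in Ov GDR, 7.65 and 8.35 in F1 GDR, and 3.55 and 2.75 in F1 GCs. Its values in both germinal disc groups overlapped each other and lay far above those of F1 GCs, by 4.83 in Ov GDR (SE 0.46, 28.5-fold, adjusted p = 0.00699) and by 4.85 in F1 GDR (28.8-fold, adjusted p = 0.0251). KIF4B, a chromokinesin of the KIF4 family that binds chromosome arms and the central spindle, read 8.97 and 8.36 in Ov GDR, 8.49 and 8.81 in F1 GDR, and 5.43 and 4.34 in F1 GCs. It was higher than in F1 GCs by 3.78 in Ov GDR and by 3.76 in F1 GDR (SE 0.48, adjusted p = 0.0132 and 0.0322), and every F1 GCs value was above background. KIF20B, a kinesin of late cytokinesis, read 6.74 and 8.01 in Ov GDR, 6.48 and 6.93 in F1 GDR, and 4.41 and 3.34 in F1 GCs. It was 11.3-fold higher in Ov GDR against F1 GCs (adjusted p = 0.0287), and its difference of 2.83 between F1 GDR and F1 GCs was not called (adjusted p = 0.0824).

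On the probe sets that stand for them, KIF20A and KIF14, both needed for cytokinesis, differed from the others in how the germinal disc groups stood to each other. KIF20A, which brings the chromosomal passenger complex to the central spindle, read 5.52 and 4.44 in Ov GDR, 6.87 and 7.23 in F1 GDR, and 3.69 and 2.63 in F1 GCs. The F1 GDR arrays were above the Ov GDR arrays, and KIF20A was 14.8-fold higher in F1 GDR against F1 GCs (difference 3.89, SE 0.55, adjusted p = 0.0365). Its difference of 1.82 between Ov GDR and F1 GCs (95% interval 0.37 to 3.26) was not called (adjusted p = 0.0962). KIF14, a motor of the midbody, read 7.53 and 8.03 in Ov GDR, 5.82 and 4.18 in F1 GDR, and 4.24 and 3.97 in F1 GCs, so that 1 F1 GDR array lay among the F1 GCs arrays. KIF14 was 12.8-fold higher in Ov GDR against F1 GCs (difference 3.67, SE 0.62, adjusted p = 0.0256) and its difference between F1 GDR and F1 GCs was 0.90 (adjusted p = 0.62). Between Ov GDR and F1 GDR the difference of KIF14 was 2.78 and that of KIF20A -2.07, and neither was called (adjusted p = 0.131 and 0.174). A second probe set of KIF20A, above background on all 6 arrays, read 4.18 and 4.25 in Ov GDR and 3.77 and 3.83 in F1 GDR. Its difference of 0.42 between these groups had the opposite sign, and that between F1 GDR and F1 GCs was 0.14. Neither was called. The other probe sets of KIF14 read between 2.48 and 3.21 on all arrays. Their differences were 0.24 and 0.04 between Ov GDR and F1 GCs and 0.22 and 0.03 between Ov GDR and F1 GDR, none of them called.

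Among the kinesins that act on microtubule ends, KIF2C and KIF18B were called in both comparisons with F1 GCs. KIF2C, which takes tubulin off the ends of microtubules at centromeres, read 7.35 and 8.75 in Ov GDR, 7.24 and 7.79 in F1 GDR, and 3.51 and 3.41 in F1 GCs. It was higher than in F1 GCs by 4.59 in Ov GDR (SE 0.55, 24.2-fold, adjusted p = 0.0115) and by 4.06 in F1 GDR (16.6-fold, adjusted p = 0.0347). KIF18B, which works on astral microtubules, read 6.91 and 5.69 in Ov GDR, 6.49 and 6.90 in F1 GDR, and 3.44 and 3.31 in F1 GCs. It was higher by 2.93 in Ov GDR and by 3.32 in F1 GDR, each against F1 GCs (SE 0.49, adjusted p = 0.0249 and 0.0383). KIF18A, which damps the movement of chromosomes at the spindle equator, was an exception, because its Ov GDR arrays read 3.28 and 7.45, on either side of the F1 GDR values of 5.33 and 5.35. With F1 GCs values of 3.44 and 3.04, its difference of 2.12 between Ov GDR and F1 GCs had a 95% interval from -1.60 to 5.84. KIF2A, which depolymerizes microtubules at spindle poles and also outside division, read 9.04 and 8.44 in Ov GDR, 8.85 and 9.03 in F1 GDR, and 8.58 and 7.94 in F1 GCs, a difference of 0.48 between Ov GDR and F1 GCs (adjusted p = 0.327). KIF20AL, a gene named after KIF20A, had differences of at most 0.35.

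**Figure D2:**
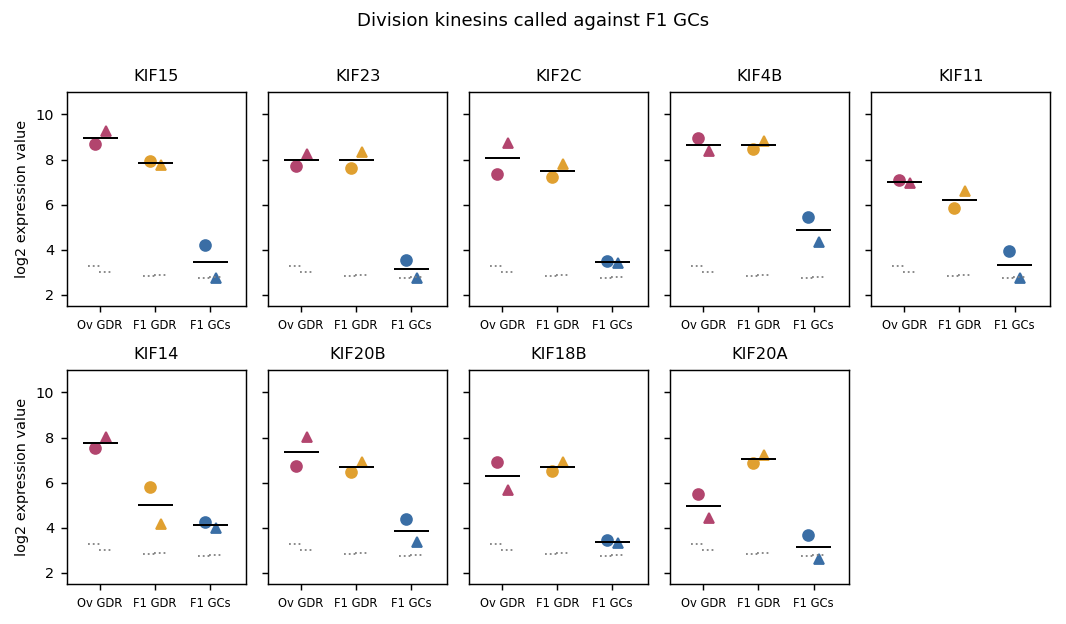
Log2 expression values of the 9 division kinesins called against F1 GCs, by group, with circles for arrays without a suffix, triangles for arrays with the suffix A, black lines for group means and dotted lines for the background of each array. In every panel both F1 GCs values lie under both Ov GDR values, and in KIF14 1 F1 GDR value falls between the F1 GCs values.

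Genes of cycling cells and of oocytes moved with the division kinesins in the comparisons with F1 GCs. All 9 measured markers of cycling cells had a positive difference in both comparisons with F1 GCs, 7 were called higher in Ov GDR and 4 in F1 GDR, and 0 were called between the germinal disc groups. Their summed linear levels were 3853 and 6921 in Ov GDR, 4420 and 4443 in F1 GDR, and 618 and 475 in F1 GCs, with 9 of 9 above background except on the F1 GCs array A, where 7 of 9 were. Of 8 oocyte markers 5 were higher in Ov GDR and 5 in F1 GDR against F1 GCs. In these comparisons 10.1% and 4.34% of all genes were higher. Between Ov GDR and F1 GDR 1 of the 8 oocyte markers was lower in Ov GDR (limma adjusted p = 0.0464) and 0 were higher. Over all genes 3.05% were lower there and 0.2% higher. The part of the number of dividing cells and of oocyte material in the differences of the kinesins was not tested.

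Within F1 GCs the division kinesins also differed between the arrays. All 8 division kinesins called in Ov GDR against F1 GCs read lower on the F1 GCs array A than on the array without a suffix, with a median of -0.93 and values from -1.47 to -0.10, beside a median of 0.00 over all genes with a symbol. The labels give 14 µg of total RNA for the array A and 7 µg for the other, amounts that differ from those in the methods. The part of this in the difference was not tested. With the F1 GCs array without a suffix left out, 6 of the 15 motor calls in Ov GDR against F1 GCs remained, and with the array A left out 2, which were KIF15 and KLC1. Without either F1 GDR array 10 of the 15 remained, the others being KIF18B, KIF20B, DYNC1I1, DYNLT1 and DNAH9, and without the Ov GDR array that has no suffix 13 remained, the others being KIF21A and DYNLT3. Of the 7 calls in F1 GDR against F1 GCs, 0 remained when any 1 of the F1 GDR or F1 GCs arrays was left out (adjusted p from 0.0539 to 0.207), and 6 remained without either Ov GDR array, the exception being DYNC1I1.

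Transport kinesins and their light chains included the strongest decreases. Of the 13 genes, KIF21A was higher and KIFC2 and KLC1 were lower in Ov GDR against F1 GCs, 10 were not called, and 0 were called in the other comparisons. These counts are 7.69% higher and 15.4% lower, near the 10.1% and 12.2% of all genes. The median difference of the 13 between Ov GDR and F1 GCs was 0.12.

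KIF21A, a kinesin that restrains microtubule growth and is best known from neurons, read 8.65 and 8.32 in Ov GDR, 7.01 and 4.85 in F1 GDR, and 4.09 and 3.17 in F1 GCs. The groups did not overlap and F1 GDR stood between the others. The difference of 4.86 between Ov GDR and F1 GCs was called (SE 0.82, 29.0-fold, adjusted p = 0.0258), and those of 2.55 between Ov GDR and F1 GDR and 2.30 between F1 GDR and F1 GCs were not (adjusted p = 0.222 and 0.243). The F1 GDR arrays differed from each other by -2.16 for this gene, array A minus the array without a suffix.

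KIFC2 is a minus-end kinesin described in mouse neurons. On the probe set that stands for it, KIFC2 was at background in Ov GDR with 2.88 and 2.73, and read 7.07 and 5.40 in F1 GDR and 7.66 and 7.58 in F1 GCs. It was at least 22.3-fold lower in Ov GDR against F1 GCs (fitted difference -4.82, SE 0.60, adjusted p = 0.0123). Its difference of -3.43 between Ov GDR and F1 GDR was the most negative of all motor genes in that comparison and was not called (adjusted p = 0.0842). A second probe set of KIFC2 was above background in Ov GDR, with 4.15 and 3.28. On that probe set the difference between Ov GDR and F1 GDR was 0.34, of the opposite sign, and was not called (adjusted p = 0.739). KLC1, a light chain that ties kinesin-1 to its cargo, read 3.08 and 3.19 in Ov GDR, 4.85 and 5.40 in F1 GDR, and 6.35 and 6.51 in F1 GCs. The groups did not overlap, and the Ov GDR array without a suffix was at its background. KLC1 was 9.81-fold lower in Ov GDR against F1 GCs (difference -3.29, SE 0.28, adjusted p = 0.00553), which was the lowest adjusted p of any motor gene. Its difference of -1.99 between Ov GDR and F1 GDR (95% interval -2.73 to -1.26) missed the threshold with an adjusted p of 0.0546, and that of -1.30 between F1 GDR and F1 GCs with 0.0811. Of 11 granulosa markers 7 were lower and 1 higher in Ov GDR against F1 GCs, with 4 positive differences among the 11, and their part in the values of KIFC2 and KLC1 was not tested.

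The other transport genes were not called in any comparison. The heavy chains of kinesin-1 were KIF5B, which works in all cells, and KIF5C, known from neurons. KIF5B read 5.62 and 6.52 in Ov GDR, 5.38 and 5.38 in F1 GDR, and 5.63 and 5.56 in F1 GCs, and the Ov GDR and F1 GCs values overlapped. KIF5C read between 2.75 and 3.41. KLC2, the second light chain, read between 3.05 and 4.60 with overlapping groups in all comparisons. KIF1B, a carrier of mitochondria and vesicles, read 8.91 and 7.90 in Ov GDR, 6.61 and 4.55 in F1 GDR, and 7.15 and 7.35 in F1 GCs, and its difference of 2.82 between Ov GDR and F1 GDR was the largest positive one in that comparison (adjusted p = 0.188). KIF13A, which carries endosomes, read 4.84 and 3.40 in Ov GDR, 4.95 and 4.73 in F1 GDR, and 5.94 and 6.02 in F1 GCs, with a difference of -1.86 between Ov GDR and F1 GCs (adjusted p = 0.084). KIF1BP read between 7.27 and 8.26 with a difference of 0.64, and KIF16B, a motor of early endosomes, between 3.30 and 4.03 with one of 0.06.

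**Figure D3:**
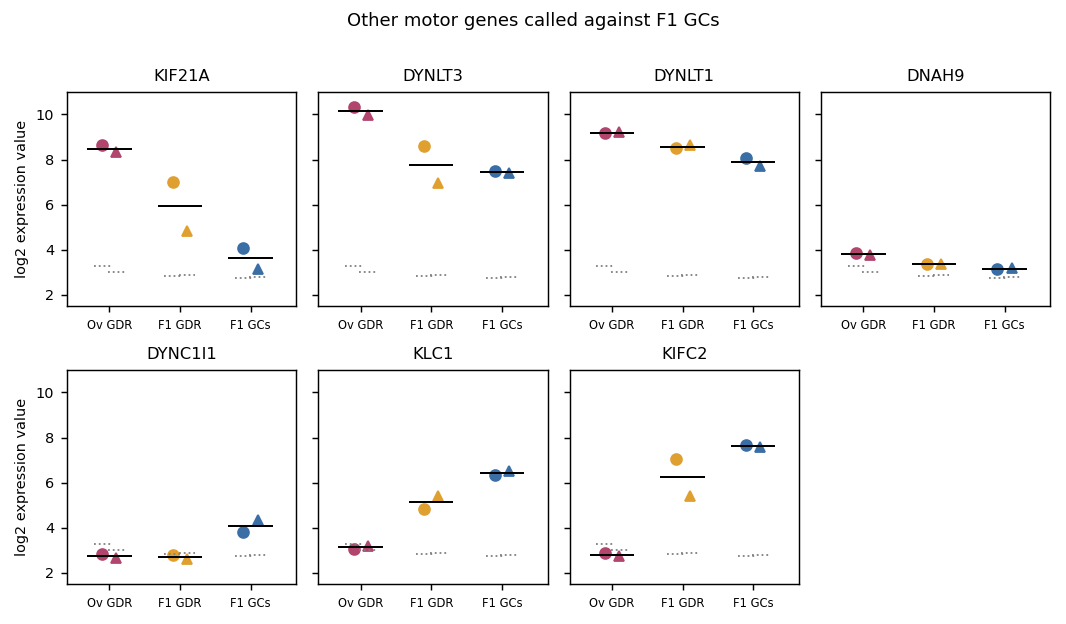
Log2 expression values of the 7 motor genes outside the division kinesins that were called against F1 GCs, by group, with circles for arrays without a suffix, triangles for arrays with the suffix A, black lines for group means and dotted lines for the background of each array. KIF21A, DYNLT3, DYNLT1 and DNAH9 are highest in Ov GDR, and DYNC1I1, KLC1 and KIFC2 are highest in F1 GCs.

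Cytoplasmic dynein 1 is built around a heavy chain, with intermediate chains that bind dynactin and light intermediate chains that bind cargo adaptors. Of its 5 genes 1 was lower in both comparisons with F1 GCs, 0 were higher, and 0 were called between Ov GDR and F1 GDR. That is 20% lower, where 12.2% of all genes were lower in Ov GDR and 3.34% in F1 GDR. The one called was DYNC1I1, the intermediate chain best known from neurons, which was at background with 2.84 and 2.67 in Ov GDR and with 2.78 and 2.62 in F1 GDR, and read 3.80 and 4.36 in F1 GCs. It was at least 1.91-fold lower in Ov GDR (fitted difference -1.32, SE 0.22, adjusted p = 0.0241) and at least 2.34-fold lower in F1 GDR (fitted difference -1.38, adjusted p = 0.0436) than in F1 GCs. DYNC1I2, the intermediate chain of most tissues, read 4.89 and 6.00 in Ov GDR, 5.73 and 6.08 in F1 GDR, and 6.88 and 6.91 in F1 GCs, a difference of -1.45 between Ov GDR and F1 GCs that was not called (adjusted p = 0.102).

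The heavy chain DYNC1H1 read 8.54 and 7.53 in Ov GDR, 8.15 and 7.93 in F1 GDR, and 8.11 and 8.29 in F1 GCs. These values overlapped in all comparisons, and the difference between Ov GDR and F1 GCs was -0.16 with a 95% interval from -1.22 to 0.90. The light intermediate chains differed from each other in sign. DYNC1LI1 read 7.28 and 7.91 in Ov GDR, 8.19 and 8.02 in F1 GDR, and 6.88 and 6.83 in F1 GCs, and its difference of 1.25 between F1 GDR and F1 GCs was not called (adjusted p = 0.118). DYNC1LI2 read 7.43 and 6.83 in Ov GDR, 7.51 and 7.25 in F1 GDR, and 8.21 and 8.30 in F1 GCs, and its difference of -1.13 between Ov GDR and F1 GCs was not called (adjusted p = 0.0829).

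On the probe sets that stand for the 5 dynein light chains, both members of the Tctex family were higher in Ov GDR against F1 GCs and the others were not called. That is 40%, beside 10.1% of all genes. DYNLT3, a light chain that also binds a checkpoint protein of the kinetochore, read 10.33 and 9.97 in Ov GDR, 8.60 and 6.94 in F1 GDR, and 7.48 and 7.41 in F1 GCs. The Ov GDR arrays were above all others, whereas the F1 GDR arrays lay on either side of the F1 GCs arrays. DYNLT3 was 6.50-fold higher in Ov GDR against F1 GCs (difference 2.70, SE 0.59, adjusted p = 0.0476), and without either Ov GDR array it was no longer called. A second probe set of DYNLT3, above background on all 6 arrays, was highest in F1 GDR with 4.99 and 5.85. It read 4.78 and 3.84 in Ov GDR and 3.81 and 3.51 in F1 GCs, and was not called in any comparison. Its difference between Ov GDR and F1 GDR was -1.11, where the first probe set had 2.38. DYNLT1 read 9.16 and 9.23 in Ov GDR, 8.50 and 8.64 in F1 GDR, and 8.05 and 7.71 in F1 GCs, so that the groups stood apart in that order. It was higher by 1.32 in Ov GDR than in F1 GCs (SE 0.22, adjusted p = 0.0251), and its differences of 0.63 between Ov GDR and F1 GDR and 0.69 between F1 GDR and F1 GCs were not called. A second probe set of DYNLT1 was above background on all 6 arrays. It read 7.19 and 4.24 in Ov GDR, 5.21 and 4.88 in F1 GDR, and 5.35 and 4.97 in F1 GCs. Its Ov GDR arrays lay on either side of the F1 GCs arrays, and it was not called in any comparison. DYNLL2, of the LC8 family, had its highest values in F1 GCs with 8.54 and 7.47 in Ov GDR, 7.90 and 8.28 in F1 GDR, and 8.99 and 8.77 in F1 GCs (difference -0.87 between Ov GDR and F1 GCs, adjusted p = 0.206). The roadblock light chain DYNLRB2 read between 3.24 and 3.85 and DYNLRB1 between 2.29 and 2.54.

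Motors of cilia gave small differences. Kinesin-2 carries cargo towards the tip of a cilium and dynein 2 brings it back. The kinesin-2 motors KIF3A and KIF3B read between 2.95 and 4.0 and between 3.61 and 3.97 on the 6 arrays. KIF7, a regulator of Hedgehog signalling at the ciliary tip, read 4.60 and 6.36 in Ov GDR, 5.69 and 5.19 in F1 GDR, and 4.51 and 4.90 in F1 GCs, which overlapped between Ov GDR and F1 GCs. KIF6, which acts in motile cilia of the mouse, had the largest difference of the ciliary group, 1.07 between Ov GDR and F1 GCs (adjusted p = 0.232). Of the 10 genes in this group 0 were called in any comparison, and at an unadjusted p under 0.05 there was 1 higher in Ov GDR against F1 GDR, 1 higher in Ov GDR against F1 GCs (23.4% higher and 18.1% lower over all genes) and 0 in F1 GDR against F1 GCs. The dynein 2 heavy chain DYNC2H1 read 3.79 and 5.62 in Ov GDR, 4.45 and 3.59 in F1 GDR, and 4.43 and 4.0 in F1 GCs, so that the Ov GDR arrays lay on either side of the F1 GCs arrays. Its light intermediate chain DYNC2LI1 read between 3.18 and 3.60.

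The heavy chains of axonemal dyneins, which drive the beat of motile cilia, stayed near background. The 9 genes read between 2.35 and 4.18 on all arrays, 4 were above background on all 6 arrays and 4 on none. DNAH9, an outer arm heavy chain, was the only one called, that is 11.1% beside 10.1% of all genes higher in Ov GDR against F1 GCs. It read 3.86 and 3.75 in Ov GDR, 3.36 and 3.36 in F1 GDR, and 3.15 and 3.18 in F1 GCs, a difference of 0.64 between Ov GDR and F1 GCs (SE 0.12, 1.56-fold, adjusted p = 0.0305). The array background also lay above that of F1 GCs in Ov GDR, with 3.27 and 3.01 against 2.76 and 2.78, and its part in this value was not tested. Of the other probe sets of DNAH9 1 was called, with a difference of 0.09 (limma adjusted p = 0.0297), at background on all 6 arrays. The rest had differences from 0.01 to 0.23 and were not called. All 9 heavy chains had a positive difference between Ov GDR and F1 GCs, with a median of 0.18, as did 64.6% of all genes, and 5 of the 9 were at background in Ov GDR. Of the 7 measured markers of ciliated cells and oviduct epithelium 0 were called in any comparison, and their summed linear levels were 367 and 689 in Ov GDR, 754 and 929 in F1 GDR, and 834 and 836 in F1 GCs.

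**Figure D4:**
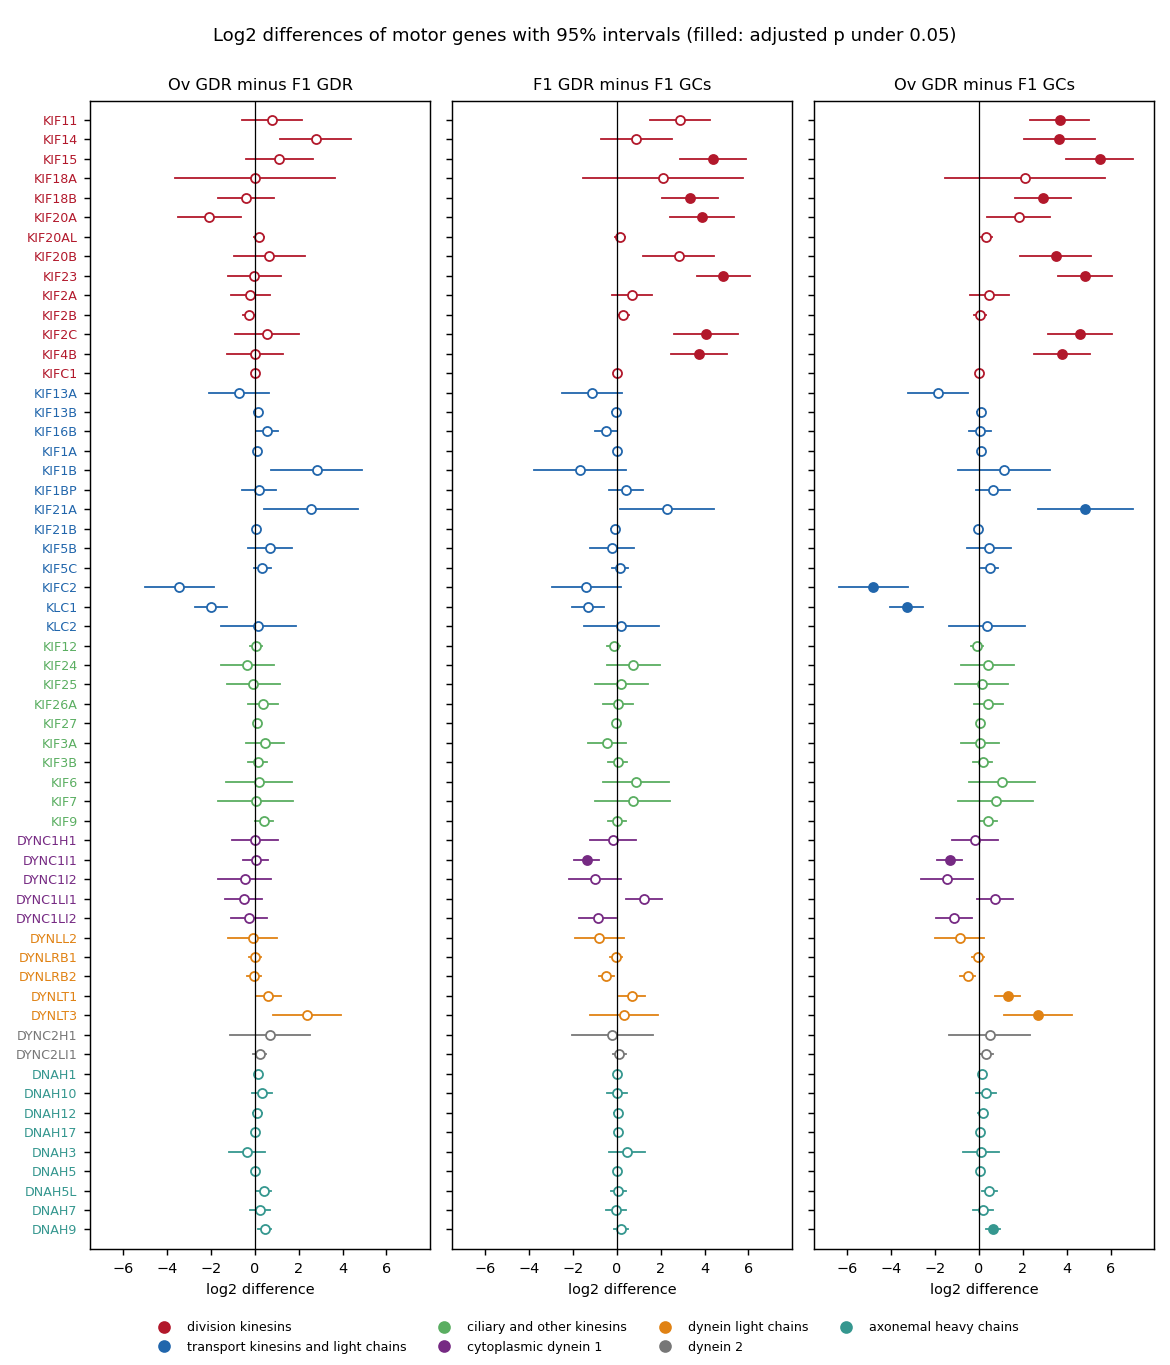
Log2 differences of the 58 motor genes (rows, coloured by role) in the 3 comparisons, with 95% intervals of the limma fit and filled points for an adjusted p under 0.05. Filled points of division kinesins lie between 2.93 and 5.50 for Ov GDR minus F1 GCs and between 3.32 and 4.85 for F1 GDR minus F1 GCs, and no point is filled for Ov GDR minus F1 GDR.

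Between the germinal disc regions before and after ovulation, 0 of 58 motor genes were called in either direction, beside 0.2% of all genes higher and 3.05% lower in Ov GDR. At an unadjusted p under 0.05, 10 motor genes were higher and 3 lower, where 9.26% of all genes were higher and 13.3% lower. An unpaired t-test that gave each probe set its own variance, with Benjamini-Hochberg adjustment, gave 0 as well, but it could hardly have called any. It kept 0 of the 7 motor calls in F1 GDR against F1 GCs and 1 of the 15 in Ov GDR against F1 GCs. The methods instead pooled the variance over groups of genes and adjusted by Bonferroni. A rebuilt version of that variance mixture gave 2 higher (DYNLT1 and KIF14) and 3 lower (KIF20A, KIFC2 and KLC1) with Benjamini-Hochberg, and 0 with Bonferroni. When ACTB, GAPDH and EEF1A1, the reporter genes, were given the same mean on each array, 4 were higher (KIF14, KIF1B, KIF21A and DYNLT3) and 1 lower (KIFC2), a scaling that moved the median over all probe sets to 0.51 from the 0.05 of the deposited values. Between Ov GDR and F1 GDR the reporters differed by -1.14 for EEF1A1, -0.05 for ACTB and -0.17 for GAPDH, so the scaling rests mostly on EEF1A1. The shares of all genes called with the mixture or this scaling are not given here, so these counts show nothing particular to motors. In the deposited values the 14 division kinesins had a median difference of 0.02 between Ov GDR and F1 GDR, 8 of them positive and 6 negative. Relative to the median of all genes theirs was -0.02, which the reporter scaling cannot change because it shifts all genes of an array alike. The 95% intervals of 7 of the 9 called division kinesins held 0, as for KIF23 from -1.23 to 1.20 and for KIF4B from -1.26 to 1.28, and those of KIF14 and KIF20A did not.

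When 1 Ov GDR array was left out, the calls between Ov GDR and F1 GDR depended on which array remained. Ov GDR was then a single array, assumed to vary like the arrays of the other groups, which alone gave the spread. Without the array that has no suffix, KIF18A, KIF26A and KIF3A were higher and KIF13A was lower. Without the array A, DNAH10 was higher and KIF18A and KLC1 were lower, so that KIF18A was called in opposite directions. These genes were chosen after their values were seen.

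Most called genes were read by further probe sets. Of the 15 motor genes called in Ov GDR against F1 GCs, 14 had other probe sets, 31 in all, of which 21 were above background on at least 2 arrays. Of the 31, 30 had the same sign as the probe set that stands for the gene, where 70.9% of all probe sets were positive in this comparison, 8 were called in the same direction and 0 in the opposite one (over all probe sets 6.51% were called higher and 8.54% lower). By their type, the probe sets that stand for the called genes KIF20A, KIF20B, KIF23, KIFC2, DYNC1I1 and DNAH9 may be shared by several transcripts. The exception in sign was the second probe set of DYNC1I1, which read between 2.51 and 2.6 on all arrays. All 4 other probe sets of KIF20B were higher in Ov GDR against F1 GCs, by 1.24 to 3.17, as were one of KIF4B, by 5.03 (adjusted p = 0.0101), and one of KIF11, by 2.31 (adjusted p = 0.028). KIF15 had 5 probe sets, KIF2C 4, KIF14 3, KIF23 2 and KIF21A 2, and only the probe set that stands for each gene was called there. The others had positive differences, from 0.06 to 2.43 for KIF15, from 1.75 to 3.77 for KIF2C and of 1.83 for KIF21A. Those of KIF14 were 0.24 and 0.04, and that of KIF23 was 2.70 (limma adjusted p = 0.21). Between F1 GDR and F1 GCs the second probe set of KIF15 had a difference of 1.19. A second probe set of KLC1 was lower in both germinal disc groups against F1 GCs, with differences of -2.33 in Ov GDR (adjusted p = 0.0165) and -2.06 in F1 GDR (adjusted p = 0.0442). The second probe set of KIFC2 had a difference of -0.81 between Ov GDR and F1 GCs and was not called (adjusted p = 0.34). For F1 GDR against F1 GCs, 10 of 12 other probe sets of called genes had the same sign and 1 was called, where 2.1% of all probe sets were higher and 3.09% lower, while a second probe set of DYNC1LI2, whose first was not called, was lower in F1 GDR with a difference of -2.14 (adjusted p = 0.0279).

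**Figure D5:**
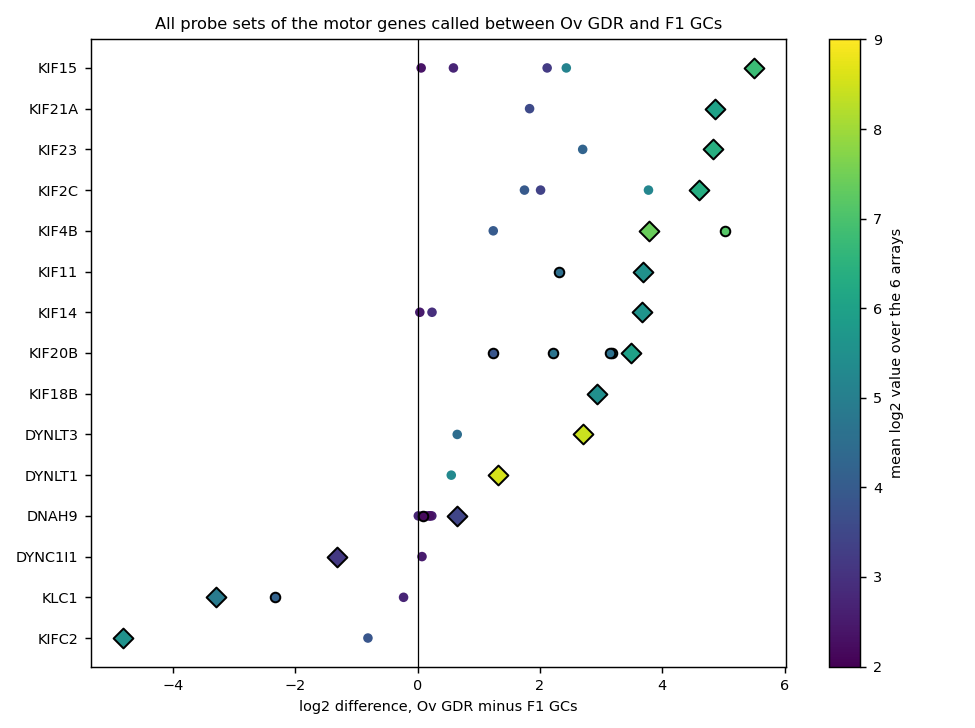
Log2 differences between Ov GDR and F1 GCs for every probe set of the 15 motor genes called in that comparison, with diamonds for the probe set that represents the gene, circles for the others, black edges for an adjusted p under 0.05 and colour for the mean log2 value over the 6 arrays. Of the 31 circles 30 lie on the same side of 0 as their diamond.

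Several motor probe sets read very differently on the 2 Ov GDR arrays. Of the 154 motor probe sets 10 were higher by more than 2 on the Ov GDR array A than on the array without a suffix and 1 was lower, that is 7.14%, beside 4.63% of all probe sets. Between the F1 GDR arrays 1.95% of the motor probe sets differed by more than 2, beside 0.61% of all probe sets. Between the F1 GCs arrays 0% did, beside 0.15%. A second probe set of KIF2C read 4.31 and 8.48 in Ov GDR, 6.75 and 6.52 in F1 GDR, and 2.62 and 2.63 in F1 GCs. A second one of KIF23 read 2.94 and 6.98 in Ov GDR, 5.43 and 5.49 in F1 GDR, and 2.42 and 2.09 in F1 GCs, so that for both genes the F1 GDR values lay between those of the Ov GDR arrays.

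Genes of proteins that work with the motors were read in the same way. The spindle partners of kinesins include CENPE, itself a kinesin that the naming rule does not catch. Of 16 measured spindle partners 12 were higher in Ov GDR and 10 in F1 GDR against F1 GCs, with 0 lower and median differences of 4.63 and 4.49. Over all genes 10.1% and 4.34% were higher in these comparisons, with median differences of 0.08 and 0.03. KNSTRN, a kinetochore protein, read 11.04 and 10.36 in Ov GDR, 9.31 and 9.56 in F1 GDR, and 4.70 and 2.68 in F1 GCs, and exceeded F1 GCs by 7.01 in Ov GDR (adjusted p = 0.00829) and by 5.74 in F1 GDR (adjusted p = 0.0318). AURKB, the kinase of the chromosomal passenger complex that KIF20A carries, read 11.34 and 12.51 in Ov GDR, 11.39 and 11.62 in F1 GDR, and 7.09 and 4.0 in F1 GCs, and was higher by 6.38 in Ov GDR (adjusted p = 0.0269). NUSAP1, which bundles spindle microtubules, was higher by 4.86 in F1 GDR against F1 GCs (adjusted p = 0.0315). As with the division kinesins, KNSTRN, AURKB and NUSAP1 all read lower on the F1 GCs array A than on the array without a suffix.

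Regulators of dynein were mixed. Of 13 measured activators and regulators 4 were higher and 1 lower in Ov GDR, and 3 higher and 0 lower in F1 GDR, each against F1 GCs. Over all genes 10.1% were higher and 12.2% lower in Ov GDR, and 4.34% and 3.34% in F1 GDR. NIN, a centrosome protein that activates dynein, was higher by 3.81 in Ov GDR (adjusted p = 0.0147) and by 3.25 in F1 GDR (adjusted p = 0.0435), and CLIP1, a plus-end protein that recruits dynactin, by 3.09 and 2.64 (adjusted p = 0.00832 and 0.0311). Of 10 dynactin subunits DCTN3 was higher by 1.16 (adjusted p = 0.0371) and DCTN4 lower with a difference of -1.97 (adjusted p = 0.0184) in Ov GDR against F1 GCs, and 0 were called in F1 GDR against F1 GCs, where 2 were higher and 1 lower at an unadjusted p under 0.05 (14.9% and 12% over all genes). The adjusted counts of 1 and 1 are near the 10.1% of all genes higher and 12.2% lower in Ov GDR against F1 GCs. Of 14 adaptors that link kinesins to cargo, RHOT2, a mitochondrial GTPase, was higher by 2.03 (adjusted p = 0.0121) and MAPK8IP3, which ties vesicles to kinesin-1, lower with a difference of -1.55 (adjusted p = 0.0328) in Ov GDR than in F1 GCs. That is 7.14% in each direction, under the 10.1% and 12.2% of all genes.

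The remaining lists hold the tubulins, which form the tracks, the proteins that bind them and genes of cilia. Of 14 tubulins 2 were higher in each comparison with F1 GCs (14.3%), where 10.1% of all genes were higher in Ov GDR and 4.34% in F1 GDR. TUBAL3, an alpha tubulin, was higher by 4.36 in Ov GDR (adjusted p = 0.00701) and by 3.53 in F1 GDR (adjusted p = 0.0301), TUBB2A by 3.63 in Ov GDR (adjusted p = 0.0135) and TUBB6 by 1.70 in F1 GDR (adjusted p = 0.0427). Of 15 proteins that bind microtubules 3 were higher and 2 lower in Ov GDR against F1 GCs, among them STMN1, which destabilizes microtubules, with a difference of 4.13 (adjusted p = 0.0239), and the polymerase CKAP5 with 3.20 (adjusted p = 0.0176). These counts are 20% and 13.3%, beside 10.1% and 12.2% of all genes. Of 21 genes of intraflagellar transport 3 were higher and 1 lower in Ov GDR against F1 GCs (14.3% and 4.76%, beside 10.1% and 12.2% of all genes), with TRAF3IP1 higher by 2.70 (adjusted p = 0.0429) and IFT74 by 2.52 (adjusted p = 0.0142). Of 16 partners of axonemal dyneins 4 were higher in Ov GDR and 1 in F1 GDR against F1 GCs (25% and 6.25%, beside 10.1% and 4.34% of all genes). CCDC40, a coiled-coil protein that sets the spacing of dynein arms, was higher by 3.32 in Ov GDR (adjusted p = 0.00539) and by 3.33 in F1 GDR (adjusted p = 0.0235), and DNAAF5, which helps to assemble dynein arms, by 2.37 in Ov GDR (adjusted p = 0.014). Between Ov GDR and F1 GDR 0 genes of these 8 lists were called in either direction with limma, and at an unadjusted p under 0.05 the lists held between 0 and 3 genes higher and between 0 and 4 lower, where 9.26% of all genes were higher and 13.3% lower.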

How the data were processed

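The authors pooled germinal disc regions or granulosa cells of 25 hens per array, hybridized the RNA to 6 chicken Affymetrix arrays and normalized them together with gcrma. The deposited log2 values, 1 per probe set, were used without further scaling, and those of the F1 GDR array A are given to 2 decimals. The 96 Affymetrix controls among 38535 probe sets entered no test. Symbols came from the platform's annotation, and all 58 motor symbols were the same in RefSeq by Entrez ID.

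Group means were fitted over all 6 arrays (limma 3.58.1, R 4.3.3), with a mean-variance trend, 3 residual and 1.66 prior degrees of freedom, since varmixt, which the methods name, was rebuilt only as an alternative. The precision is limited by the number of arrays. A lower group whose arrays both lay at background gives a fold that is only a bound.

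The members, gene lists and tests were chosen with earlier results of these data known. Named genes are, per comparison and direction, the 10 called motor genes with the largest difference and no overlap, then per role the largest called and uncalled member and per list the 2 largest called members. Other motor genes were named after their values were seen. As alternatives, the trend was dropped, and tried were fits of the 4 arrays in question, a block for the suffix, a filter at a mean log2 of 4, equal reporter gene means, a t-test on each probe set's own variance, a rebuilt version of the methods' variance mixture, Bonferroni, a minimum difference of 1, the most variable probe set and each array left out. The fit was tested on simulated data.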

Additional observations from a re-analysis of the deposited data

How the results depend on the processing

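The directions of the called motor genes held under every setting tried, but most settings could not have changed them. Most keep the same group means, and the compared groups of called genes did not overlap, so leaving out 1 array could not turn a sign. Only the reporter scaling and the most variable probe set could have done so. The counts of calls did change. The shares of all genes called under the alternative settings are not given here. The counts therefore show how calls depend on the setting, and nothing particular to the motors or the lists. Between Ov GDR and F1 GCs, 12 motor genes were higher and 3 lower. With the suffix as a replicate block 6 were higher, with a t-test on the variance of each probe set alone 0 higher and 1 lower, with Bonferroni 0 and 0, with that t-test and Bonferroni 0 and 0, and with the filter 6 lower. The rebuilt variance mixture with Bonferroni, which is closest to the methods, gave 8 higher and 2 lower. Its p-values were taken from a normal distribution, which makes no allowance for a variance estimated from few arrays. Leaving out each array gave 1 to 17 higher and 1 to 6 lower. Between F1 GDR and F1 GCs, 6 were higher and 1 lower. Higher were 0 with the block, the t-test and Bonferroni, 10 with reporter scaling, and 14 with the variance mixture or 10 after Bonferroni. Lower were 0 without a trend, with 4 arrays, the block, reporter scaling, the t-test and Bonferroni, 2 with the filter or the most variable probe set and 6 with the mixture. Leaving out each array gave 0 to 8 higher and 0 to 0 lower. Between Ov GDR and F1 GDR, 0 were called, against 1 higher and 2 lower with the filter, 4 and 1 with reporter scaling, 2 and 3 with the mixture and 1 lower without a trend, and 0 to 3 higher and 0 to 2 lower with each array left out. The 8 lists together had 16 genes higher in F1 GDR and 30 higher and 6 lower in Ov GDR, each against F1 GCs. Over all genes 4.34% were higher in F1 GDR, and 10.1% were higher and 12.2% lower in Ov GDR. Reporter scaling gave 30 higher and 2 lower in F1 GDR, 46 higher and 3 lower in Ov GDR, and 4 higher between Ov GDR and F1 GDR, and moderation without a trend 1 lower in F1 GDR and 3 higher between Ov GDR and F1 GDR. With each array left out the lists gave 0 to 22 higher and 0 to 1 lower for F1 GDR against F1 GCs, 6 to 43 and 0 to 16 for Ov GDR against F1 GCs, and 0 to 9 and 0 to 9 for Ov GDR against F1 GDR. DYNC2H1, not called, ranged with each array left out from -0.23 to 1.60 between Ov GDR and F1 GDR and from -0.42 to 1.41 between Ov GDR and F1 GCs, both lowest without the Ov GDR array A, and from -0.63 to 0.23 between F1 GDR and F1 GCs, with 0.23 without the F1 GDR array A and 0.02 without the F1 GCs array that has no suffix. The causes were not tested.

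The suffix A is not stated to pair arrays across groups. Deviations of arrays with the same suffix correlated at -0.15 between Ov GDR and F1 GDR, 0.17 between Ov GDR and F1 GCs and -0.15 between F1 GDR and F1 GCs over all probe sets. With the suffix as a replicate block 8 of 15 calls in Ov GDR against F1 GCs and 0 of 7 in F1 GDR against F1 GCs remained. With the suffix of F1 GDR crossed, 7 motor genes were higher in Ov GDR against F1 GCs, and in F1 GDR against F1 GCs 0 were higher and 0 lower. The crossed block and the t-test and variance mixture with Bonferroni were chosen after seeing the data.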
